A study of Homo sapiens with 6 samples.

Results

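The genes of serine synthesis and one-carbon metabolism were examined in nascent RNA of HCT116 cells, an established human colorectal carcinoma line. The 10 members, PHGDH, PSAT1, PSPH, SHMT1, SHMT2, MTHFD1, MTHFD2, MTHFD1L, ALDH1L2 and CBS, were selected by gene symbol and by pathway role, and all 10 were found among the 22984 sense-strand gene rows of every library. Nascent RNA was measured by Bru-seq, in which RNA made during 30 min of bromouridine labelling is captured and sequenced, so that introns and exons of a gene are both read. The 6 libraries were DMSO libraries 1 and 2 (0.01% vehicle, 4 h), siGSTO1 (10 nM siRNA, labelled 24 h), C1-27 (1 μM, at 4 h and at 24 h) and C1-14 (10 μM, 4 h). GSTO1 is a glutathione transferase of the omega class. C1-27 is a chloroacetamide inhibitor of it and C1-14 is described by the study as its inactive analogue. Only DMSO had more than 1 library, and the labels do not say whether its libraries came from separate cultures. The p-values below therefore rest on the spread between these DMSO libraries, which may be technical, and each lone treated library was assumed to vary like them. In the edgeR fit this spread was largely shared across genes, not taken gene by gene. For siGSTO1 the standard errors of PHGDH and MTHFD1L were 0.305 and 0.303. Their ratios of DMSO library 2 to library 1 were 0.592 and 1.07. The siGSTO1 and C1-27 24 h libraries were compared with 4 h DMSO, and no library with a non-targeting siRNA was analysed here, so that the effect of the siRNA target, of transfection and of the longer time cannot be told apart.

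Serine is made from the glycolytic intermediate 3-phosphoglycerate in a short chain of reactions. PHGDH, a dehydrogenase, commits the intermediate to the pathway, PSAT1 transfers an amino group to it, and the phosphatase PSPH releases serine. The serine hydroxymethyltransferases SHMT1, in the cytosol, and SHMT2, in mitochondria, then split serine into glycine and a carbon unit carried on tetrahydrofolate. In mitochondria MTHFD2 and MTHFD1L carry that unit on to formate, and ALDH1L2 oxidises it to carbon dioxide with the production of NADPH. In the cytosol MTHFD1 takes formate back into the folate pool used to build purines and thymidylate. CBS joins serine to homocysteine on the way to cysteine and glutathione. In many cell types the serine synthesis genes and MTHFD2 are known targets of ATF4, the transcription factor of the amino acid and integrated stress responses.

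Sense counts over genes came to between 18112861 and 36841146 per library, the lowest being DMSO library 1. The targeted gene, GSTO1, had an RPKM (a gene's reads scaled to its length and to the library total) of 3.51 and 3.72 in DMSO, 2.70 after siGSTO1, 3.78 and 4.21 with C1-27 at 4 h and 24 h, and 3.82 with C1-14. It was lowest in the siGSTO1 library, but its edgeR log2 fold change of -0.53 did not pass the test (SE 0.266, adjusted p = 0.33). An siRNA acts on mature mRNA, so nascent RNA is not a direct measure of the knockdown. The epithelial markers EPCAM, KRT8, KRT18 and KRT19 were at 2.57 RPKM or more in every library, whereas CDH1 and CDX2 were lower (0.321 to 0.617 and 0.232 to 0.383 RPKM) and VIL1 and LGALS4 had at most 4 counts. KRT8 was lower with C1-27 at 24 h (edgeR log2 fold change -1.03, adjusted p = 0.0441, not called by DESeq2), and its part in the results was not tested. Among 6 markers of other cell types CD3E had no count, COL1A2 at most 1, PTPRC at most 4 and ALB at most 19, while PECAM1 was at 0.168 to 0.374 RPKM and COL1A1 at 0.0609 to 0.313 RPKM, highest after siGSTO1.

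In DMSO the members spanned a wide range of nascent RNA, and because RPKM is per length they can be ordered. MTHFD2 was the highest with 7.39 ± 0.693 RPKM (SD, n = 2), above 97.8% of all gene rows. MTHFD1L (2.41 ± 0.109), MTHFD1 (2.13 ± 0.160), PSAT1 (2.00 ± 0.334) and SHMT2 (1.90 ± 0.904) followed, and the DMSO range of SHMT2, 1.26 to 2.54 RPKM, overlapped those of MTHFD1L, MTHFD1 and PSAT1, as did those of MTHFD1 and PSAT1 with each other. SHMT1 (0.706 ± 0.216), PHGDH (0.498 ± 0.181) and PSPH (0.462 ± 0.111) came next, and the range of PHGDH overlapped those of SHMT1 and PSPH, which did not overlap each other. ALDH1L2 had 0.0206 ± 0.00025 RPKM and CBS was listed at 0 in both DMSO libraries. The first enzyme of serine synthesis thus had a lower level per length than the second in each DMSO library, 0.626 against 2.24 RPKM and 0.370 against 1.76 RPKM.

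**Figure D1:**
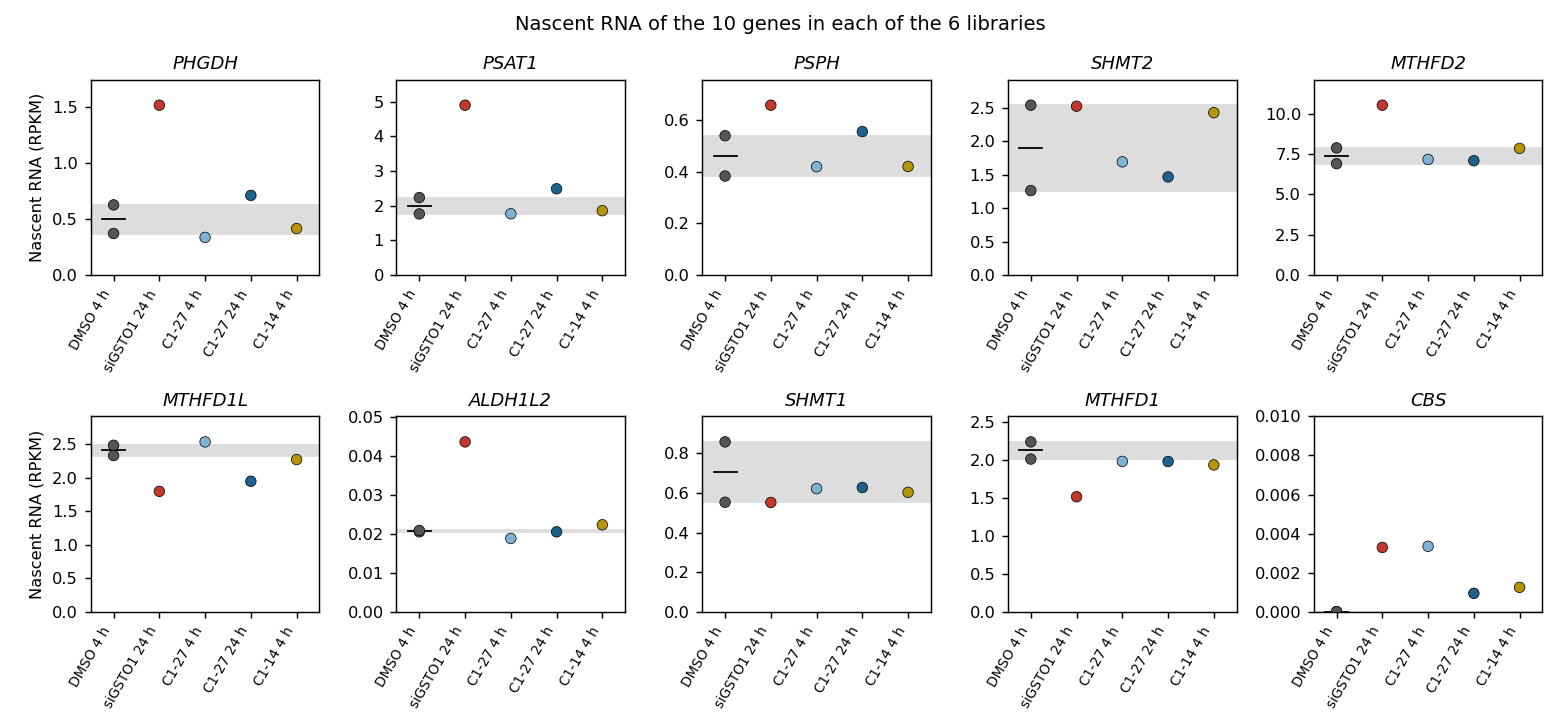
Nascent RNA of the 10 members in each of the 6 libraries, as RPKM on a linear axis, with 1 panel per gene and 1 point per library. In the PHGDH and PSAT1 panels the siGSTO1 point lies above all 5 others, at 1.52 and 4.90 RPKM.

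The serine synthesis genes PHGDH and PSAT1 were upregulated in the siGSTO1 library. PHGDH had 0.626 and 0.370 RPKM in DMSO, 1.52 after siGSTO1, 0.336 and 0.711 with C1-27 at 4 h and 24 h, and 0.415 with C1-14. The siGSTO1 value was the highest of the 6 and did not overlap the DMSO range. It was 3.04-fold the DMSO mean, and 2.42-fold and 4.10-fold the separate DMSO libraries. The edgeR log2 fold change was 1.51 (SE 0.305, adjusted p = 0.00011), a fold of 2.84 with a 95% interval of 1.88 to 4.30. These counts, 1292 for siGSTO1 against 475 and 490 for DMSO, lie on a gene of 32431 bp at 1:120254419-120286849 on the plus strand (hg19). In bulk RNA a change in the rate per cell and a change in which cells are present cannot be told apart, and this holds for each gene given here.

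PSAT1, the aminotransferase that acts after PHGDH, moved in the same direction. Its RPKM was 2.24 and 1.76 in DMSO, 4.90 after siGSTO1, 1.77 and 2.49 with C1-27 at 4 h and 24 h, and 1.86 with C1-14. The siGSTO1 library was again the highest and stood apart from all others, at 2.45-fold the DMSO mean and at 2.19-fold and 2.78-fold the separate libraries. Its edgeR log2 fold change was 1.19 (SE 0.233, adjusted p = 5.51e-05). PSAT1 lies at 9:80912059-80945009 on the plus strand (hg19).

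PSPH, which completes the pathway, had 0.540 and 0.384 RPKM in DMSO and 0.658 after siGSTO1. C1-27 gave 0.420 at 4 h and 0.556 at 24 h, and C1-14 gave 0.421. The siGSTO1 value was above both DMSO libraries by 1.22-fold and 1.72-fold, less than the 1.4-fold asked for against each, and the log2 fold change of 0.41 did not pass the test (edgeR, SE 0.318, adjusted p = 0.64).

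The promoters of PHGDH and PSAT1, the members that passed the test, and of MTHFD1L, the only member with the sequence searched for, are shown so that they can be set beside the values. The 150 bases before the annotated start come from RefSeq on GRCh38.p14, 5′ to 3′ on the strand of the gene, at chr1:119711784-119711933 for PHGDH, chr9:78296975-78297124 for PSAT1 and chr6:150866336-150866485 for MTHFD1L, all plus strand. Capitals mark CCAAT, the box bound by the factor NF-Y, in PHGDH and PSAT1, and TGATGNAA, the composite element bound by ATF4 with C/EBP partners, in MTHFD1L.
PHGDH: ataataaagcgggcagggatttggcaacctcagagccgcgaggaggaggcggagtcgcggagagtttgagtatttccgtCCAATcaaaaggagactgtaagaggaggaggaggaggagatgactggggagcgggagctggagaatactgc
PSAT1: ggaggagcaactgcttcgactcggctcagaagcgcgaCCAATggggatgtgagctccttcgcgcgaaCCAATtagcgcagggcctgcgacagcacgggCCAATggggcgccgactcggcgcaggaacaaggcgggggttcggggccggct
MTHFD1L: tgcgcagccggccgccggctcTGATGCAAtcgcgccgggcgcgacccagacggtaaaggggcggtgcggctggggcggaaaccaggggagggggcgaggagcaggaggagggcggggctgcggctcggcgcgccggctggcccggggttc
Promoters were held for 7 of the 10 members, and 250 bases before the start were searched on both strands. TGATGNAA was found in 3.14% of 35116 promoters and, among the members, in MTHFD1L only, whose nascent RNA was not higher after siGSTO1. The letters are not in these windows of PHGDH and PSAT1, which says nothing about the factor. CCAAT was searched after the values had been seen. It was present in 32% of the promoters and in at least 1 promoter of all 7 members held, also of those not higher after siGSTO1, so it does not set PHGDH and PSAT1 apart. PSAT1 is among the 2.93% with at least 3 copies. These matches are letters in a window and were not measured as sites.

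Among the mitochondrial folate enzymes MTHFD2 was higher and MTHFD1L lower in the siGSTO1 library than in either DMSO library, without passing the test. MTHFD2 had 7.88 and 6.90 RPKM in DMSO, 10.5 after siGSTO1, 7.17 and 7.09 with C1-27 at 4 h and 24 h, and 7.85 with C1-14. Against the separate DMSO libraries the siGSTO1 value was 1.34-fold and 1.53-fold, and the log2 fold change was 0.40 (edgeR, SE 0.242, adjusted p = 0.481). The 5 other libraries kept within 6.90 to 7.88 RPKM. MTHFD1L, the formate-releasing synthetase, had 2.33 and 2.48 RPKM in DMSO, 1.796 after siGSTO1, 2.53 and 1.95 with C1-27 at 4 h and 24 h, and 2.27 with C1-14. Its lowest values were those of both 24 h libraries, and the siGSTO1 log2 fold change was -0.54 (edgeR, SE 0.303, adjusted p = 0.428).

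SHMT2, which starts the mitochondrial branch, varied most between the DMSO libraries. Its values were 2.54 and 1.26 RPKM in DMSO, 2.53 after siGSTO1, 1.69 and 1.47 with C1-27 at 4 h and 24 h, and 2.43 with C1-14. All 4 treated libraries lay inside the DMSO range. The ratio of 0.497 between DMSO library 2 and library 1 was a larger difference than that of 97.7% of genes, so that no SHMT2 difference within this range could be detected. SHMT2 shares 33 bp with NDUFA4L2 on the opposite strand.

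ALDH1L2 was read at few counts, with 31 and 55 in DMSO, 74 after siGSTO1, 47 and 61 with C1-27 at 4 h and 24 h, and 50 with C1-14. The siGSTO1 level, 0.0435 RPKM against 0.0205 and 0.0208 in DMSO, was the highest of the 6. The count ratio to pooled DMSO was 2.10 with an exact 95% interval of 1.52 to 2.90, which covers counting error only. In edgeR the log2 fold change of 0.96 did not pass (SE 0.578, adjusted p = 0.477). Antisense reads made up 82.3% to 91.3% of the reads of both strands over ALDH1L2 in every library, whereas for the other 8 members tested the antisense share was at most 6.81%. Their part in the ALDH1L2 value was not tested.

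The cytosolic enzymes were not higher after siGSTO1. MTHFD1 had 2.24 and 2.02 RPKM in DMSO, 1.52 after siGSTO1, 1.98 with C1-27 at either time, and 1.94 with C1-14. The siGSTO1 value was the lowest, at 0.677-fold and 0.753-fold the DMSO libraries, with a log2 fold change of -0.60 (edgeR, SE 0.253, unadjusted p = 0.018, adjusted p = 0.198). By edgeR it is the only member besides PHGDH and PSAT1 with an unadjusted p under 0.05 in this comparison, and by DESeq2 MTHFD1L was a further one (unadjusted p = 0.0305, adjusted p = 0.391). SHMT1 had 0.858 and 0.553 RPKM in DMSO and 0.552 to 0.628 in the 4 treated libraries, so that every treated value was at or near the lower end of the DMSO range. The siGSTO1 log2 fold change of SHMT1 was -0.46 (edgeR, SE 0.318, adjusted p = 0.568).

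CBS had almost no sense reads in any library, and whether the gene is transcribed in these cells was not tested in another way. It had 0 counts in both DMSO libraries, 2 after siGSTO1, 3 and 1 with C1-27 at 4 h and 24 h, and 1 with C1-14, too few to test or to give a fold.

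**Figure D2:**
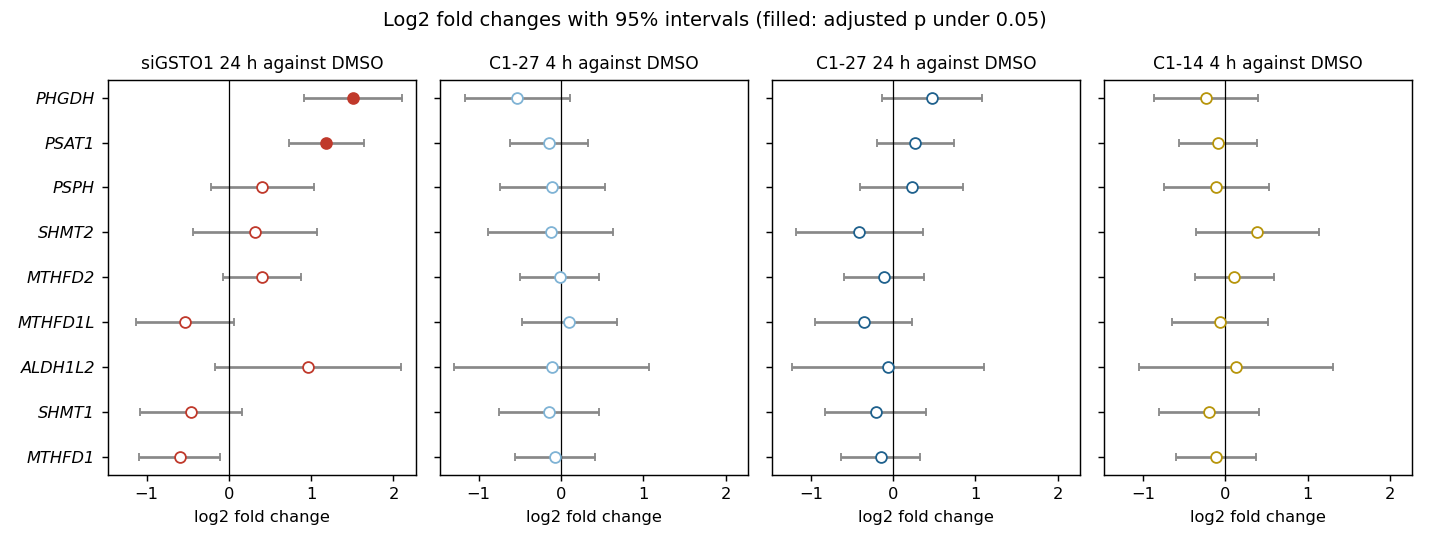
edgeR log2 fold change against DMSO of the 9 members tested, in each of the 4 comparisons, with bars for the 95% interval. The siGSTO1 points of PHGDH (1.51) and PSAT1 (1.19) have intervals above 0, that of MTHFD1 (-0.60) lies below 0 before any adjustment, and every interval of the C1-27 and C1-14 points crosses 0.

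In all, 2 of the 9 members tested were higher after siGSTO1 with an adjusted p under 0.05 and 0 were lower, where edgeR called 3.00% of all 14431 genes higher and 1.16% lower. DESeq2 called the same 2, PHGDH (adjusted p = 0.0129) and PSAT1 (adjusted p = 0.00719), and no member lower. At an unadjusted p under 0.05, 3 members passed by edgeR and 4 by DESeq2. The share of all genes that did so was not counted. The fold rule asked for at least 1.4-fold against each DMSO library. It was applied to genes whose mean of treated RPKM and mean DMSO RPKM was above 0.5. By it 2 of the 8 members that passed this filter were higher and 0 lower, where 6.49% of 8138 genes were higher and 3.29% lower. PHGDH and PSPH, at 0.498 and 0.462 RPKM in DMSO on average, passed the filter only through the siGSTO1 value. PHGDH is 1 of the 2 members called. Against DMSO library 2 alone 5 members were higher, adding PSPH, MTHFD2 and SHMT2. Against library 1 alone 2 were lower, MTHFD1 and SHMT1. Shares of all genes against a single DMSO library were not counted, here or for the compounds below. The median log2 fold change of the 9 members was 0.40, against 0.015 over all genes tested. Of the 9 members, 6 were above 0, where 51.4% of all genes tested were. Of the 9 members, 5 lay above both DMSO libraries, 3 below both and 1 between them. How all genes divide by this measure was not counted. The 5 were PHGDH, PSAT1, PSPH, MTHFD2 and ALDH1L2. The 3 were SHMT1, MTHFD1 and MTHFD1L, of which SHMT1 lay only just under DMSO library 2.

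**Figure D3:**
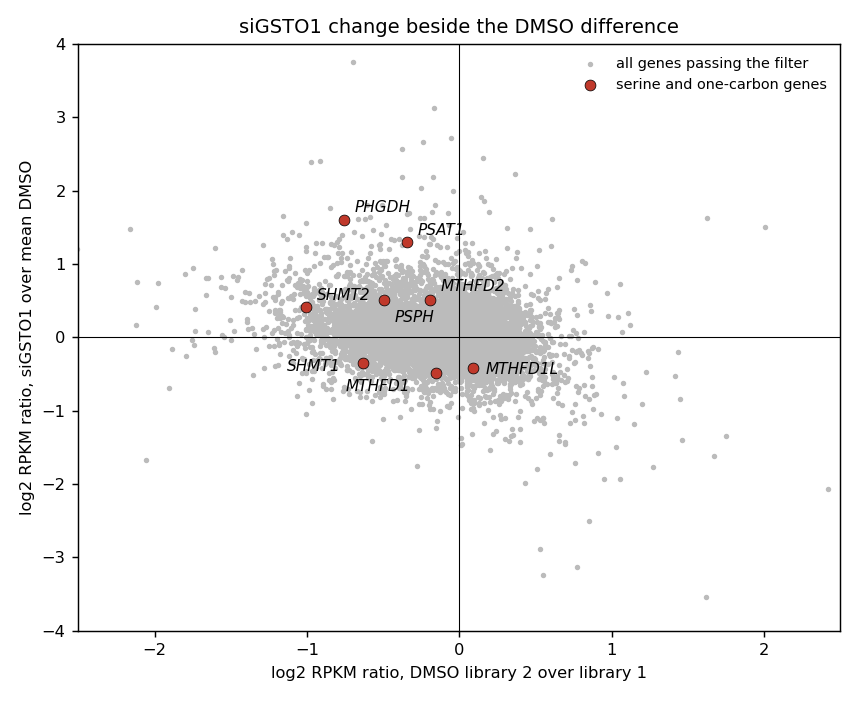
Log2 ratio of DMSO library 2 over library 1 (x axis) against the log2 ratio of siGSTO1 over the DMSO mean (y axis), for genes with RPKM values past the filter in grey and the members in colour. PHGDH and PSAT1 lie high on the y axis, at folds of 3.04 and 2.45, while their DMSO ratios are 0.592 and 0.789.

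The DMSO libraries themselves differed at these genes, and the differences were of the same order as several treated ones. DMSO library 2 was lower than library 1 for 7 of the 9 members with reads, where 58.6% of 7825 genes were lower. Those 7825 genes had a mean DMSO RPKM above 0.5, which PHGDH, PSPH and ALDH1L2 did not reach. The ratios of library 2 to library 1 were 0.592 for PHGDH, 0.645 for SHMT1, 0.710 for PSPH, 0.789 for PSAT1, 0.876 for MTHFD2 and 0.899 for MTHFD1. MTHFD1L (1.07) and ALDH1L2 (1.02) differed little. The siGSTO1 increases of PHGDH and PSAT1 exceed the ratio between the DMSO libraries, whichever of them is taken as the control.

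With C1-27 at 24 h no member was called. By edgeR 0 of 9 members passed, 0 had an unadjusted p under 0.05, and DESeq2 also called 0, where edgeR called 0.277% of all genes in either direction. By the fold rule 0 of 8 members passed, where 1.89% of genes were higher and 0.897% lower. PHGDH and PSPH passed the RPKM filter here only through the treated value. The serine synthesis genes lay above both DMSO libraries, PHGDH by 1.14-fold and 1.92-fold, PSAT1 by 1.11-fold and 1.41-fold and PSPH by 1.03-fold and 1.45-fold. The PHGDH log2 fold change was 0.47 with a 95% interval of -0.14 to 1.08, and that of PSAT1 was 0.27 with an interval of -0.20 to 0.73. The intervals hold no change as well as a fold of up to 2.12 for PHGDH and 1.66 for PSAT1. Against DMSO library 2 alone PHGDH and PSAT1 passed the fold rule, PSPH (1.45-fold) did not because its mean RPKM was then under 0.5, and against library 1 alone SHMT2 passed it as lower. MTHFD1L was below both DMSO libraries, at 0.835-fold and 0.784-fold.

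With C1-27 at 4 h the same genes were not higher. PHGDH was at 0.536-fold and 0.906-fold the DMSO libraries, the lowest of the 6 libraries, with a log2 fold change of -0.53 (edgeR, 95% interval -1.17 to 0.11). PSAT1, at 1.77 RPKM, was at the level of DMSO library 2 (1.76). By edgeR 0 of 9 members passed, 0 had an unadjusted p under 0.05 and DESeq2 called 0, where edgeR called 0.0139% of all genes. By the fold rule 0 of 6 members passed, where 0.143% of genes were higher and 0.235% lower. Against DMSO library 1 alone SHMT2 passed it as lower. PHGDH and PSPH did not pass the RPKM filter at 4 h.

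C1-27 at 24 h and at 4 h was also compared directly, with the same compound and dose. PHGDH was the only member with an unadjusted p under 0.05, with a log2 difference of 1.00 (edgeR, SE 0.37, unadjusted p = 0.0067, adjusted p = 0.952). For PSAT1 the log2 difference was 0.41 (edgeR, adjusted p = 1.00). Of all genes 0.104% passed in this contrast and 0 of 9 members did, by edgeR as by DESeq2.

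The 24 h libraries were compared with each other without DMSO in the difference. PSAT1 was 1.89-fold higher with siGSTO1 than with C1-27 (edgeR, 95% interval 1.29 to 2.76, unadjusted p = 0.00101, adjusted p = 0.0791) and PHGDH 2.05-fold higher (95% interval 1.24 to 3.37, unadjusted p = 0.0048, adjusted p = 0.231). Neither passed the adjustment over all genes, where 0.991% of genes did. The call of PHGDH and PSAT1 after siGSTO1 and its lack with C1-27 is therefore not shown to be a difference between the treatments.

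C1-14 at 10 μM is given beside C1-27 at 1 μM, without a comparison, because the doses differ. Against the mean of DMSO, C1-14 at 4 h gave 0.832-fold for PHGDH where C1-27 at 4 h gave 0.673-fold, and its log2 fold change for PHGDH was -0.23 (95% interval -0.87 to 0.40). SHMT2 was at 1.28-fold the DMSO mean, inside the DMSO range, and its log2 fold change of 0.39 had an interval of -0.36 to 1.13. By edgeR 0 of 9 members passed, 0 had an unadjusted p under 0.05 and DESeq2 called 0, where edgeR called 0.118% of all genes. By the fold rule 0 of 6 members passed, where 1.98% of genes were higher and 0.0899% lower. Against DMSO library 2 alone SHMT2 passed it as higher, and against library 1 alone PHGDH and SHMT1 passed it as lower.

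The neighbouring genes of the pathway, in 6 lists chosen with earlier results known, were read in the same fit, in which 3.00% of all genes were called higher and 1.16% lower after siGSTO1. Among the amino acid response genes, which include many known ATF4 targets, 7 of 14 tested were upregulated after siGSTO1 and 0 downregulated. Their median log2 fold change was 1.22, against 0.015 over all genes tested. DESeq2 called 6 of them. DDIT4, an inhibitor of mTORC1 signalling, rose from 0.887 and 0.546 RPKM to 9.70 (log2 fold change 3.67, edgeR, adjusted p = 5.29e-12). ASNS, asparagine synthetase, rose from 0.883 and 0.681 to 4.62 RPKM (2.46, adjusted p = 5.51e-15). SLC7A11, the cystine importer, rose from 0.562 and 0.540 to 3.62 RPKM (2.60, adjusted p = 8.52e-25). It was the only gene of the lists that edgeR also called with C1-27, at both times, whereas DESeq2 called it at 24 h but not at 4 h. ATF4 itself was at 16.4 and 11.7 RPKM in DMSO and 17.0 after siGSTO1, with a log2 fold change of 0.18 that did not pass the test (edgeR, adjusted p = 0.87).

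Of 12 cytosolic aminoacyl-tRNA synthetases, which charge tRNAs, 5 were upregulated after siGSTO1 and 0 downregulated, with a median log2 fold change of 0.63, and DESeq2 called 1, CARS. Those with the smallest p by edgeR were CARS, for cysteine (1.33, adjusted p = 3.27e-05), SARS, for serine (1.00, adjusted p = 0.00341), and MARS, for methionine (0.93, adjusted p = 0.0102). Of 9 tested genes of serine and glycine transport and use, 1 was upregulated, the neutral amino acid transporter SLC1A4, at low RPKM (0.0543 and 0.0339 in DMSO, 0.185 after siGSTO1, adjusted p = 0.0077 by edgeR). Of 11 genes of mitochondrial folate use and glycine cleavage, 1 was upregulated, the glycine decarboxylase GLDC, also at low RPKM (0.0347 and 0.0294 in DMSO, 0.0942 after siGSTO1, adjusted p = 0.0422). DESeq2 called no gene of either list, so the calls of SLC1A4 and GLDC rest on edgeR alone. In the list of cytosolic folate use, uptake and retention, in which single genes are not given here, the median was -0.50 and 3 of 13 tested genes had a log2 fold change above 0, with 0 upregulated by edgeR or DESeq2. Of 9 tested methionine cycle and transsulfuration genes 0 were called by edgeR and 0 by DESeq2, with a median log2 fold change of 0.20. The 1 gene with an unadjusted p under 0.05 by edgeR was CTH, which makes cysteine from cystathionine (log2 fold change 0.80, adjusted p = 0.344).

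**Figure D4:**
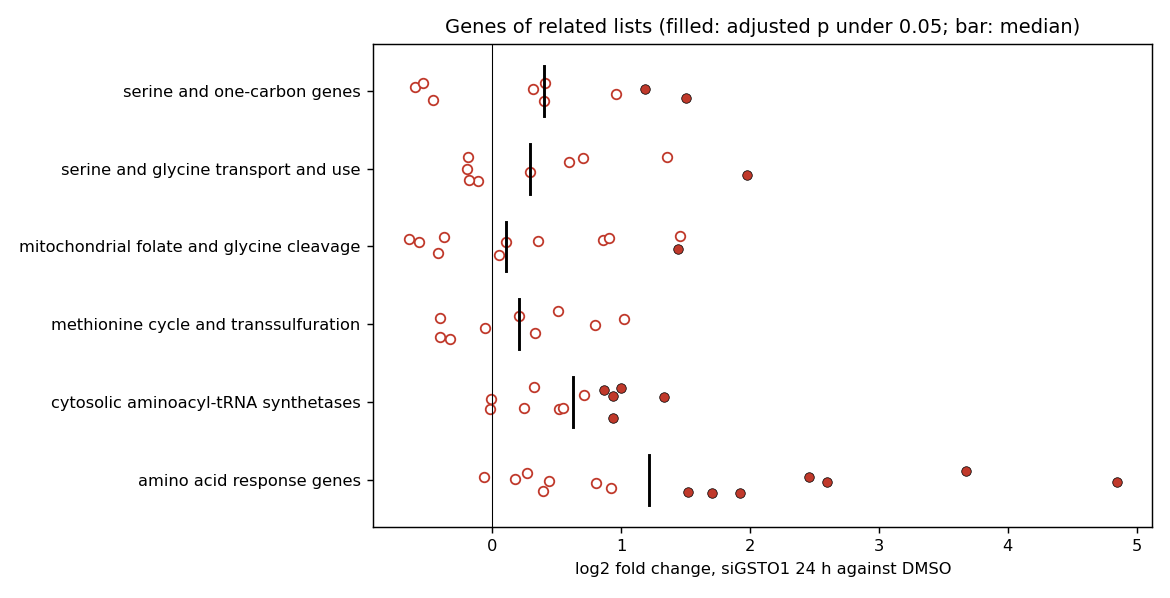
edgeR log2 fold change after siGSTO1 for each tested gene of the members and of 5 of the 6 neighbouring lists (cytosolic folate is not drawn), 1 point per gene, with filled points for adjusted p under 0.05. The amino acid response genes have the highest median (1.22) and the genes of mitochondrial folate use and glycine cleavage the lowest of those drawn (0.11).

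The genes most like the members across the 6 libraries were found by the mean absolute difference of centred log2(RPKM + 0.1) values over 7903 genes. For PHGDH these were C5orf62 (0.0912), MAN1A1 (0.101), TRIB3 (0.107), ZNF503 (0.108) and SREBF1 (0.111). For PSAT1 they were TUBB3 (0.0593), TUBE1 (0.0672), CARS (0.0699), LMO4 (0.0867) and C5orf62 (0.0903). C5orf62 stood in both lists, and TRIB3 and CARS are members of the neighbouring lists. For MTHFD2 they were LINC00294 (0.0202), NAPA (0.0330), SNRNP35 (0.0383), EPRS (0.0424) and LARP7 (0.0433). The likeness is a description over 6 libraries, of which only the DMSO libraries are replicates.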

How the data were processed

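Bru-seq libraries of HCT116 cells were analysed from tables deposited per library. Per the labels and the methods, reads were base-called with CASAVA 1.8.2, aligned with Bowtie 0.12.8 and TopHat 1.4.1 to hg19 and handled with bedtools 2.16.2. The deposited expected counts give, for each gene and strand, the reads in its exons and introns, without normalization. The deposited signal column is the count per bp and entered no test. The deposited RPKM values were computed by the authors from those counts, the gene length and the library total. Between 59.2% and 71.1% of count values were whole numbers to within 0.01, so counts were rounded for the tests.

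edgeR 4.0.16 (R 4.3.3) was run on the sense counts of 14431 genes over 300 bp that reached 10 counts in 2 or more libraries, as 6 libraries in 5 groups, with TMM, a quasi-likelihood test, 1 residual degree of freedom (common dispersion 0.0381) and Benjamini-Hochberg adjustment over all genes. Standard errors were derived from each fold change and its F statistic, and 95% intervals from them. DESeq2 1.42.0 was the alternative. RPKM folds had no pseudocount and asked for a mean RPKM above 0.5 and 1.4-fold against each DMSO library. Scripts ran in Python 3.11.15 and were tested on simulated data. Depth was 18112861 to 36841146 sense counts per library.

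Alternatives covered scaling, filters, the test, the pseudocount and the DMSO library. Named were all members, GSTO1, up to 3 genes per list with the smallest p among those called, and the 5 genes most like PHGDH, PSAT1 and MTHFD2. CTH, ATF4 and the genes of the closing observations were chosen after their values were seen. The members and lists were chosen with earlier results of these data known. The siRNA time is that of the sample label, and which of the study's siRNA sequences was used is not given in the sources used here. Single genes of the cytosolic folate list are not reported here.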

Additional observations from a re-analysis of the deposited data

Results flagged for a closer look

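PHGDH lay below both DMSO libraries with C1-27 at 4 h (0.336 RPKM) and above both with C1-27 at 24 h (0.711 RPKM). MTHFD1L did the reverse, with 2.53 RPKM at 4 h and 1.95 at 24 h against 2.33 and 2.48 in DMSO. These were listed because the same compound at the same dose lay on opposite sides of the controls at its 2 times. The edgeR contrast of the times gave adjusted p = 0.952 for PHGDH (unadjusted p = 0.0067, log2 difference 1.00) and did not pass for MTHFD1L (unadjusted p = 0.18, log2 difference -0.46).

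Antisense reads, which entered no comparison, were above both DMSO libraries over MTHFD1 and SHMT1. Over MTHFD1 they were at 0.0474 and 0.0673 RPKM in DMSO and 0.111 after siGSTO1. That was 6.81% of the reads of both strands after siGSTO1, against 2.07% and 3.23% in DMSO. Over SHMT1 they were at 0.00723 and 0.00930 RPKM in DMSO (6 and 13.5 counts) and 0.0258 after siGSTO1 (24 counts). With C1-27 they were at 0.0117 RPKM at 4 h (16 counts) and 0.0190 at 24 h (31 counts), and with C1-14 at 0.0105 (12.9 counts). Over SHMT1 every treated library was thus above both DMSO libraries. After siGSTO1 those of PSPH were also above both, at 0.0423 RPKM against 0.0317 and 0.0236 in DMSO. Those of MTHFD1L were below both, at 0.00548 RPKM against 0.0119 and 0.0180. Over all genes the antisense share was 3.47% after siGSTO1, against 3.12% and 2.85% in DMSO. SHMT1 overlaps SMCR8 on the opposite strand by 184 bp. The part of that overlap was not tested, and no test of the antisense differences was run.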

How the results depend on the processing

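The member calls by edgeR did not change in any of the 48 counts recomputed under other scaling, filters or DESeq2, and no called value reversed. Only the count of members higher after siGSTO1 was above 0 in the main fit, so most of these counts were 0 and stayed 0. Among log2 fold changes that were not called, 2 changed sign. MTHFD2 with C1-27 at 4 h, for example, was at -0.0166 by edgeR and 0.0042 by DESeq2. DESeq2 called fewer genes, with 133 higher and 82 lower after siGSTO1, 10 and 8 with C1-27 at 24 h, 2 and 0 with C1-14, 0 higher with C1-27 at 4 h, 2 and 3 between the C1-27 times and 19 and 3 between siGSTO1 and C1-27 at 24 h. For C1-27 at 4 h, 1 gene was higher under DESeq2 size factors or without the count filter, and 2 were lower without the gene size filter. The fold rule depended on the DMSO library, and the DMSO libraries themselves differed by 1.4-fold or more at 19.1% of 7825 genes. The share of all genes passing the rule was not counted under the settings that follow. Without either library the count of members higher was up to 5 after siGSTO1 (without DMSO library 1: PHGDH, PSAT1, PSPH, MTHFD2 and SHMT2), 2 with C1-27 at 24 h (PHGDH and PSAT1) and 1 with C1-14 (SHMT2), and the count lower was up to 2 after siGSTO1 (without library 2: MTHFD1 and SHMT1), 1 with C1-27 at either time (SHMT2) and 2 with C1-14 (PHGDH and SHMT1). Rescaling by TMM or DESeq2 size factors moved the median log2 fold of all genes after siGSTO1 from 0.00 to -0.12 and -0.15 and made 1 member, MTHFD1, lower. Without the RPKM filter 4 members were higher after siGSTO1 (with ALDH1L2 and CBS) and 1, CBS, with each compound, on 1 to 3 counts over 0. Leaving out a DMSO library leaves edgeR no residual degree of freedom. No paired analysis was possible because each treatment had 1 library.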

Other observations

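Transport and glycine genes beside the pathway, chosen after their values were seen, lay above both DMSO libraries after siGSTO1, none with an edgeR adjusted p under 0.05. SLC38A2, a neutral amino acid transporter, was at 15.4 and 18.3 RPKM in DMSO and 29.7 after siGSTO1 (adjusted p = 0.122). SLC6A9, a glycine transporter, was at 0.0978 and 0.0561 RPKM in DMSO and 0.210 after siGSTO1 (adjusted p = 0.101). SLC1A5, a glutamine transporter, was at 2.55 and 1.69 RPKM in DMSO and 3.45 after siGSTO1 (adjusted p = 0.277). GCSH, a subunit of the glycine cleavage system, lay below both, at 3.31 and 3.33 RPKM in DMSO and 2.29 after siGSTO1 (adjusted p = 0.184). Each of these rests on 1 treated library.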
